A study of Mus musculus with 9 samples.

Results

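Transcripts of 35 genes of DNA replication and S phase were examined in cultured mouse cells of 3 knockout lines, measured on Affymetrix expression arrays with 3 arrays per line. The genes cover origin recognition and helicase loading, the helicase and the proteins that activate it, the sliding clamp and its loader, the replicative polymerases, Okazaki fragment processing, nucleotide supply, chromatin assembly, and the E cyclins and E2F factors that act at the start of S phase. Each gene was read from its brightest probe set among those that a RefSeq accession or the probe set's description names as that gene. Sets described only as similar to Rrm2 or Ccne1 were left out, although they were brighter than the sets used. A probe set was found for 34 of the 35 genes, out of 9352 genes tested on the arrays, and all 34 passed the filter on dim signal. Chaf1a, a subunit of chromatin assembly factor, is not analysed here.

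The labels list the lines as RAG2ko, Pax5ko and EBFko cells, deficient in RAG2, Pax5 or EBF, and order them as B lineage committed, B lineage specified and lymphoid specified. RAG2 belongs to the recombinase of antigen receptor genes, while PAX5 and EBF1 are transcription factors of the B lineage. RAG2ko cells grew with IL-7 at 10 ng/ml, whereas Pax5ko and EBFko cells grew with IL-7 and Flt3 ligand, each at 10 ng/ml. The labels list no other treatment for any line. Where RAG2ko is compared, medium and genotype therefore differ together and cannot be told apart. Each line is listed as a cell line, while the sources used here give no alleles, strain, age or number of clones. Nothing in the labels shows that the 3 samples of a line came from separate cultures. The p-values therefore reflect the spread among the samples at hand, which may be technical.

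Before S phase, the origin recognition complex works with Cdc6 and Cdt1 to load the MCM helicase onto origins, a step called licensing. Cdc45, the GINS complex and Mcm10 then turn the loaded helicase into an active one, after which DNA polymerases, a clamp and its loader copy both strands from a pool of deoxynucleotides. E2F factors drive the transcription of many of these genes as cells pass from G1 into S phase, and cyclin E with its kinase promotes that passage. IL-7 is a growth factor for early B lineage cells of the mouse in culture.

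Marker genes were read first as a check of the labels. The mean over 10 B lineage genes was 11.79 to 12.57 in RAG2ko, 9.18 to 9.54 in Pax5ko and 5.71 to 7.06 in EBFko, and that over 4 progenitor genes was 5.03 to 5.62 in RAG2ko, 8.12 to 8.69 in Pax5ko and 10.95 to 11.65 in EBFko. Single genes did not all follow these means. Blnk averaged 5.18 in Pax5ko and 8.97 in EBFko, Rag1 8.73 in RAG2ko and 10.44 in Pax5ko, and Ly6a 12.26 in Pax5ko and 11.21 in EBFko. In Pax5ko minus EBFko, 6 of the 10 B lineage genes rose and 2 fell. No array had a mean above 7.82 for the T cell, NK cell, myeloid or erythroid genes, but 4 of the 20 genes tested in these lists exceeded 10 on an array. Lck, a T cell kinase, averaged 10.45 ± 0.30 in RAG2ko, 11.12 ± 0.08 in Pax5ko and 12.15 ± 0.15 in EBFko (SD, n = 3 each). Klrd1, an NK cell receptor, averaged 6.56 ± 1.07 in RAG2ko, 1.94 ± 2.73 in Pax5ko and 10.52 ± 0.17 in EBFko (SD, n = 3 each). Adgre1, a macrophage surface protein, was 5.02 to 6.91 in RAG2ko, 5.89 to 6.52 in Pax5ko and 9.88 to 10.37 in EBFko, and Mpo, a granule enzyme of myeloid cells, was 10.19 on EBFko array 3 and at most 6.71 on the others. The part of these genes in the results was not tested. All levels here are log2 signals after quantile normalization, and a level of one probe set cannot be set against that of another. Signals below 6 were taken as dim. The Ebf1 probe set was bright on the EBFko arrays, at 10.67 to 11.10, and it checks no genotype, because neither the deleted part of the gene nor where the probes lie is known here. The mean over 23 of 24 stromal genes, which mark cells often used as a feeder layer, was 6.32, 7.06 and 9.33 on RAG2ko arrays 1 to 3, 8.49 to 10.34 on the Pax5ko arrays and 8.70 to 10.05 on the EBFko arrays. The labels name no feeder layer. The stromal signal thus set RAG2ko array 3 apart from the other RAG2ko arrays and was lowest in RAG2ko, the line in which most of the changes below were rises. Its part in them was not tested. Among the RAG2ko arrays, array 3 held the highest value of 20 of the 34 replication genes and the lowest of 10, and 16 of the 34 had their highest value of all 9 arrays there, against 6 on RAG2ko array 1 and 2 on RAG2ko array 2. Within RAG2ko, 33 of the 34 replication genes had an SD under 0.3 over the arrays on which the stromal mean spanned 6.32 to 9.33. Shares over all genes tested are not given here for this count or for the counts on array 3. These counts therefore show nothing particular to the replication genes, and their relation to the stromal signal was not tested. Arrays had a median raw signal of 73.4 to 97.6, with 40.9% to 47.2% of probe sets below 64, which is 6 on the log2 scale. None of the 34 replication genes was that dim on any array, and their levels ran from 7.40 to 15.04, with 30 genes averaging above 10 over the 9 arrays.

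The replication genes that passed the test in RAG2ko were all higher there than in the other line compared. Against Pax5ko, 12 of 34 replication genes rose and 0 fell, while 9.88% of all genes tested rose and 8.09% fell. Their median log2 difference was 0.30, against 0.07 over all genes tested, and 27 of 34 differences were above 0, as were 55.0% of those of all genes. Against EBFko, 12 of 34 rose and 0 fell, while 11.4% of all genes tested rose and 10.6% fell. The median difference was 0.26, against 0.06 over all genes, and 27 of 34 differences were above 0, as were 53.7% of those of all genes. These comparisons share the RAG2ko arrays, so their results are not independent of each other. Between Pax5ko and EBFko, 1 replication gene rose and 1 fell, while 5.12% of all genes tested rose and 5.58% fell, and the median difference was -0.05, against -0.02 over all genes. The calls come from limma's moderated test on all 9 arrays at a Benjamini-Hochberg adjusted p under 0.05. At an unadjusted p under 0.05 in the same limma fit, 16 replication genes were higher and 0 lower in RAG2ko than in Pax5ko, 14 were higher and 0 lower in RAG2ko than in EBFko, and 7 were higher and 8 lower in Pax5ko than in EBFko. Since most replication genes are bright, the shares among the 2681 genes averaging above 10 also bear on the counts: 11.9% of them rose against Pax5ko and 14.2% against EBFko. In all, 16 of the 34 genes were called in at least 1 comparison and 18 in none. Shares of all genes are not given here for that count or for the counts at an unadjusted p. Neither can therefore be set against a background. Bulk RNA does not tell a smaller share of cells in S phase from less RNA per cell.

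**Figure D1:**
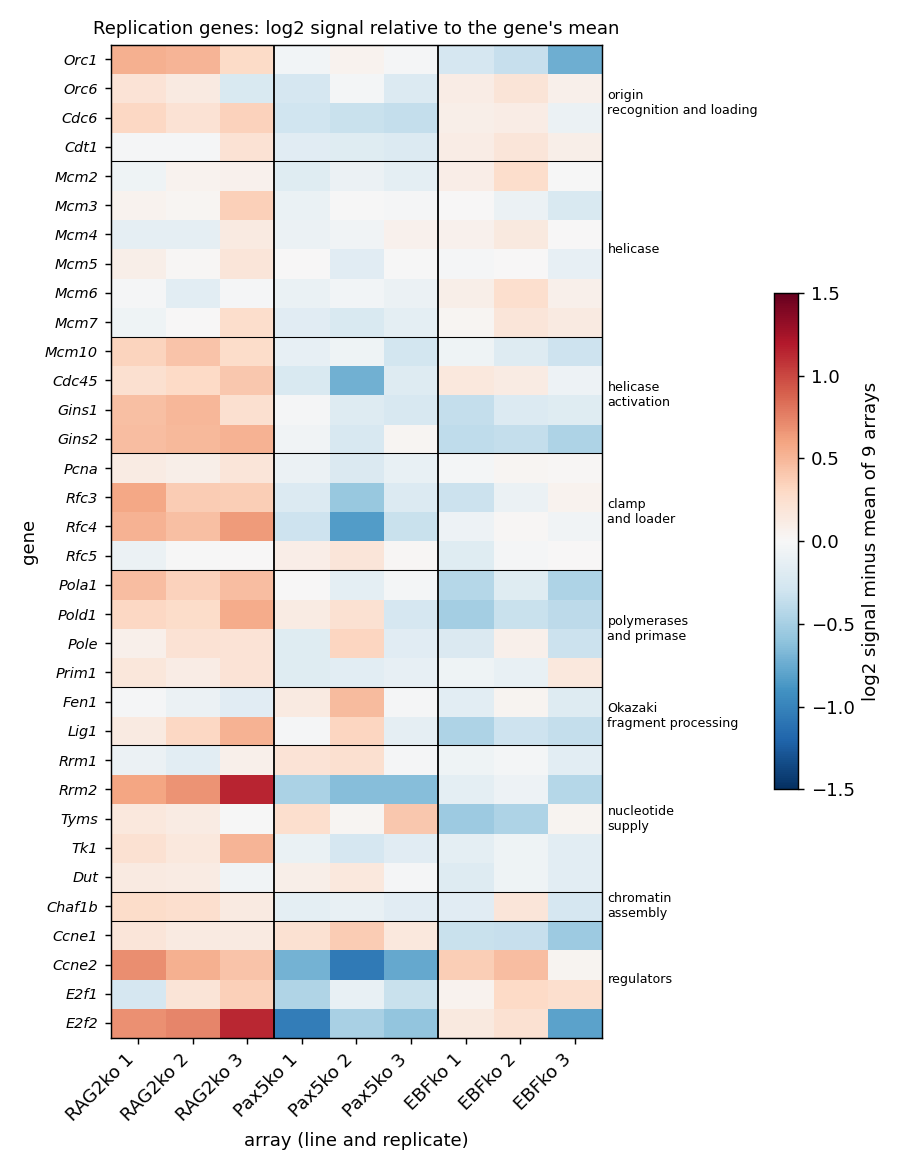
Log2 signal of the 34 replication genes on each of the 9 arrays, as the difference from the gene's mean over the arrays, with RAG2ko arrays at the left, Pax5ko in the middle and EBFko at the right. Red marks signal above the gene's mean and blue below it, and the genes of a role are boxed together. The deepest red is Rrm2 and E2f2 on RAG2ko array 3, and the helicase rows from Mcm2 to Mcm7 stay pale.

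The promoters of the replication genes were searched for E2F words, since E2F factors are the known regulators of this group. The 250 bases before the RefSeq start (GRCm38.p6) were available for 29 of the 34 genes, using the start farthest upstream. The words TTTCCCGC, TTTCGCGC, TTTGCCGC and TTTGGCGC were sought on both strands. At least 1 word stood in 7 of 29 promoters (24.1%), namely those of Cdc6, Mcm5, Mcm6, Mcm7, Orc1, Pola1 and Rfc3, against 232 of 7438 promoters of genes tested (3.12%) and 520 of 27025 promoters in the table (1.92%). The word CCAAT, sought on both strands, stood in 16 of 29 (55.2%), in 2728 of 7438 (36.7%) and in 9331 of 27025 (34.5%). Of the 9 promoters of genes that rose against Pax5ko, 3 held an E2F word, and of the 20 promoters of genes not called there, 4 did. Against EBFko, 3 of 10 promoters of genes that rose held one, and 4 of 19 of genes not called. The words were therefore found both in genes that rose and in genes that did not. A match is a stretch of letters and not a measured site. E2f2 has 2 listed starts, and only the start farthest upstream was searched. The promoters of 5 genes are shown, with E2F words in capitals, because they hold both kinds of gene: Rrm2 and E2f2 rose without such a word, Cdc6 rose with 1, and Mcm5 and Mcm6 were not called with 2 and 3 matches, some of which overlap.
Rrm2, chr12:24708004-24708253, plus strand: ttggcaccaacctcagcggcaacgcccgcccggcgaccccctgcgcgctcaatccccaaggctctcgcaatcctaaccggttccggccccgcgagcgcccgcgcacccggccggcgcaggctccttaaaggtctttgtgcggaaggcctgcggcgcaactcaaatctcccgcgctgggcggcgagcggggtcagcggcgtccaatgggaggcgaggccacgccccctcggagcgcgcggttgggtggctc
E2f2, chr4:136172024-136172273, plus strand: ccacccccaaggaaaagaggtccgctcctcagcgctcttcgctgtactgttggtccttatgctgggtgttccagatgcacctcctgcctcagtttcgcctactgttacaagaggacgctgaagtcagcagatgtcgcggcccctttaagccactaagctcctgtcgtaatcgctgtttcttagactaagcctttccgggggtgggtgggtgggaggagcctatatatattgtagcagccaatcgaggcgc
Cdc6, chr11:98907901-98908150, plus strand: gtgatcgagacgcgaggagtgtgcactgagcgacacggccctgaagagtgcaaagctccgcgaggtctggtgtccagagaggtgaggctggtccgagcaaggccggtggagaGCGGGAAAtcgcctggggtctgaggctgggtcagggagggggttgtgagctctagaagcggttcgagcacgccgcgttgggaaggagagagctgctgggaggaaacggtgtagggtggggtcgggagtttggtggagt
Mcm5, chr8:75109259-75109508, plus strand: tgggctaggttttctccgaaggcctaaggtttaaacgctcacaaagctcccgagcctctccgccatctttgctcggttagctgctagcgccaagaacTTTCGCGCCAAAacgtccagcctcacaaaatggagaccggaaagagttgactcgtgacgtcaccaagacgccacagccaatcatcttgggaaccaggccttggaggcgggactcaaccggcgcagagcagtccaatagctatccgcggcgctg
Mcm6, chr1:128359706-128359955, minus strand: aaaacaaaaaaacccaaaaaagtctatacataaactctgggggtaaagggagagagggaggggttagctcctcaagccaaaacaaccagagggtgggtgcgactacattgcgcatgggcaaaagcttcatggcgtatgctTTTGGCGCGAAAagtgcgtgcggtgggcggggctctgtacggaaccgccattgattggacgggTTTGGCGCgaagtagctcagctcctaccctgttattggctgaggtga

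Of the origin recognition and loading genes, Cdc6 rose against Pax5ko and Orc1 against EBFko. Cdc6, the ATPase that recruits the helicase to origins, gave log2 signals of 11.73, 11.64 and 11.76 on the RAG2ko arrays, 11.12, 11.08 and 11.06 on the Pax5ko arrays, and 11.51, 11.53 and 11.32 on the EBFko arrays. The RAG2ko arrays were the highest and the Pax5ko arrays the lowest, with no overlap between any of the lines. Cdc6 was higher in RAG2ko than in Pax5ko by 0.62 ± 0.10 on the log2 scale, or 1.54-fold (limma, adjusted p = 0.00665). The call was kept in all 21 refits of the model that could test its probe set, although a call of at least 2-fold would leave it out. The difference from EBFko missed the threshold (limma, adjusted p = 0.126). Orc1, the largest subunit of the origin recognition complex, gave 9.85, 9.84 and 9.61 in RAG2ko, 9.28, 9.38 and 9.31 in Pax5ko, and 9.08, 8.97 and 8.60 in EBFko. The lines formed steps without overlap, RAG2ko highest and EBFko lowest. Orc1 rose against EBFko by 0.89 ± 0.15, or 1.85-fold (limma, adjusted p = 0.00603), while the step against Pax5ko was not called (limma, adjusted p = 0.0906). A second Orc1 probe set, averaging 8.28 over the arrays, gave a difference of 0.65 from EBFko. Cdt1, the partner of Cdc6 in loading, gave 12.98, 12.98 and 13.22 in RAG2ko, 12.83, 12.82 and 12.80 in Pax5ko, and 13.11, 13.18 and 13.08 in EBFko. Its RAG2ko arrays lay above the Pax5ko arrays but overlapped the EBFko arrays, and no comparison was called. Orc6, another subunit of the origin complex, was also called in none.

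The 6 subunits of the MCM helicase, Mcm2 to Mcm7, which form the ring that unwinds DNA at the fork, were called in no comparison by their brightest probe sets. Their log2 differences lay between -0.02 and 0.25 for RAG2ko minus Pax5ko, and the 95% intervals of the single subunits reached from -0.30 to 0.53. For RAG2ko minus EBFko they lay between -0.20 and 0.25, with intervals from -0.45 to 0.55. For Pax5ko minus EBFko they lay between -0.30 and 0.06, with intervals from -0.58 to 0.36. The intervals of Mcm2 and Mcm7 for Pax5ko minus EBFko excluded 0, both below it, and the others included 0. None of these intervals reached a log2 difference of 1, which is 2-fold. Secondary probe sets of 2 subunits stood farther from 0 and passed the test when every probe set was tested. A set of Mcm3 averaging 11.79 over the arrays gave 0.71 for RAG2ko minus Pax5ko (limma, adjusted p = 0.0174). A set of Mcm5 averaging 7.93 gave 0.78 for RAG2ko minus Pax5ko, 1.88 for RAG2ko minus EBFko and 1.09 for Pax5ko minus EBFko (limma, adjusted p = 0.0427, 0.00105 and 0.0194).

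The 4 genes of helicase activation all rose against Pax5ko and 3 of them rose against EBFko. Gins2, a subunit of the GINS complex that rides with the helicase, gave 11.02, 11.04 and 11.07 in RAG2ko, 10.49, 10.31 and 10.58 in Pax5ko, and 10.17, 10.20 and 10.09 in EBFko. All RAG2ko arrays were above 11 and no line overlapped another, with EBFko lowest. Gins2 rose by 0.58 ± 0.11 against Pax5ko (limma, adjusted p = 0.0111) and by 0.89 ± 0.11, or 1.85-fold, against EBFko (limma, adjusted p = 0.00135). Its second probe set gave 0.70 against Pax5ko and 0.72 against EBFko. Gins1, another subunit of that complex, gave 11.52, 11.56 and 11.31 in RAG2ko, 11.05, 10.87 and 10.82 in Pax5ko, and 10.71, 10.86 and 10.88 in EBFko. The RAG2ko arrays were the highest, while those of Pax5ko and EBFko overlapped. The rise of Gins1 was 0.55 ± 0.12 against Pax5ko (limma, adjusted p = 0.022) and 0.64 ± 0.12 against EBFko (limma, adjusted p = 0.00956). Mcm10, which is not part of the ring and helps to activate it, gave 11.13, 11.22 and 11.08 in RAG2ko, 10.68, 10.73 and 10.53 in Pax5ko, and 10.73, 10.60 and 10.49 in EBFko. Again only the Pax5ko and EBFko arrays overlapped. Mcm10 rose by 0.50 ± 0.12 against Pax5ko (limma, adjusted p = 0.0243) and by 0.54 ± 0.12 against EBFko (limma, adjusted p = 0.0154). Its 2 dimmer probe sets gave larger differences, 1.22 and 1.08 against Pax5ko and 0.64 and 1.61 against EBFko. Cdc45, the factor that joins GINS on the helicase, gave 10.82, 10.88 and 10.98 in RAG2ko, 10.35, 9.86 and 10.38 in Pax5ko, and 10.74, 10.70 and 10.50 in EBFko. Pax5ko array 2 was the lowest, and the RAG2ko arrays lay above all others. Cdc45 rose against Pax5ko by 0.70 ± 0.17 (limma, adjusted p = 0.0268) and was not called against EBFko (limma, adjusted p = 0.342). The calls of Cdc45, Gins1 and Mcm10 against Pax5ko were lost in 8, 8 and 7 of 22 refits, without a change of sign.

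In the clamp and clamp loader group, Rfc3 and Rfc4 rose in both comparisons with RAG2ko. These are subunits of replication factor C, which opens the clamp and places it on DNA. Rfc4 gave 12.32, 12.26 and 12.44 in RAG2ko, 11.49, 10.96 and 11.47 in Pax5ko, and 11.73, 11.83 and 11.75 in EBFko. Its RAG2ko arrays stood apart at the top, the EBFko arrays were in the middle and Pax5ko array 2 was the lowest. Rfc4 rose by 1.03 ± 0.16, or 2.05-fold, against Pax5ko (limma, adjusted p = 0.00513) and by 0.57 ± 0.16 against EBFko (limma, adjusted p = 0.0437). Rfc3 gave 11.73, 11.52 and 11.52 in RAG2ko, 10.94, 10.58 and 10.94 in Pax5ko, and 10.82, 11.06 and 11.19 in EBFko. The RAG2ko arrays did not overlap the others, whereas Pax5ko and EBFko overlapped. The rise of Rfc3 was 0.77 ± 0.16 against Pax5ko (limma, adjusted p = 0.0156) and 0.57 ± 0.16 against EBFko (limma, adjusted p = 0.0412). A second Rfc3 probe set, averaging 10.66 over the arrays, gave 0.62 against Pax5ko and 0.43 against EBFko. With every probe set tested, that second set passed in neither (limma, adjusted p = 0.118 and 0.241). The calls of Rfc4 and Rfc3 against EBFko were close to the threshold and were lost in 12 (Rfc4) and 13 (Rfc3) of 22 refits. The Rfc3 call against Pax5ko was lost in 3 of 22. Pcna, the clamp itself, gave 14.98, 14.94 and 15.04 in RAG2ko, 14.77, 14.64 and 14.74 in Pax5ko, and 14.82, 14.89 and 14.87 in EBFko. Its RAG2ko arrays lay above all others, but no comparison was called (limma, adjusted p = 0.0957 against Pax5ko and 0.398 against EBFko). Rfc5, a further subunit of the loader, was called in no comparison.

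Among the polymerases, Pola1 rose in both comparisons with RAG2ko and Pold1 rose against EBFko. Pola1, the catalytic subunit of the polymerase that makes primers with primase, gave 11.53, 11.41 and 11.52 in RAG2ko, 11.07, 10.92 and 11.03 in Pax5ko, and 10.63, 10.88 and 10.60 in EBFko. The lines did not overlap, with RAG2ko highest and EBFko lowest. Pola1 rose by 0.48 ± 0.12 against Pax5ko (limma, adjusted p = 0.0301), a call lost in 11 of 22 refits, and by 0.78 ± 0.12 against EBFko (limma, adjusted p = 0.00351). Pold1, the catalytic subunit of the lagging strand polymerase, gave 11.98, 11.95 and 12.22 in RAG2ko, 11.79, 11.89 and 11.42 in Pax5ko, and 11.16, 11.34 and 11.27 in EBFko. The EBFko arrays were the lowest, below every Pax5ko array. Pold1 rose against EBFko by 0.79 ± 0.16, or 1.73-fold (limma, adjusted p = 0.0111), and a second probe set gave 0.67. Its brightest set is of a kind that can match several transcripts. Pole and Prim1, the leading strand polymerase and a primase subunit, were called in no comparison. Of the Okazaki fragment genes, Lig1, the ligase that seals the fragments, gave 11.72, 11.90 and 12.11 in RAG2ko, 11.57, 11.90 and 11.45 in Pax5ko, and 11.12, 11.27 and 11.23 in EBFko. The RAG2ko and Pax5ko arrays overlapped above the EBFko arrays. Lig1 rose against EBFko by 0.70 ± 0.16 (limma, adjusted p = 0.0202), a call lost when any EBFko array or RAG2ko array 2 was left out. Fen1, the nuclease that trims the fragments, was called in none.

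By the probe sets used, nucleotide supply held the largest rise against EBFko among the replication genes. Rrm2, the small subunit of ribonucleotide reductase that sets its activity in S phase, gave 13.14, 13.22 and 13.68 in RAG2ko, 12.07, 11.91 and 11.90 in Pax5ko, and 12.40, 12.46 and 12.11 in EBFko. Every RAG2ko array was above 13 and every other array below 12.5, with the Pax5ko arrays lowest and RAG2ko array 3 highest. Rrm2 rose by 1.39 ± 0.18, or 2.61-fold, against Pax5ko (limma, adjusted p = 0.00214) and by 1.02 ± 0.18, or 2.03-fold, against EBFko (limma, adjusted p = 0.00619). A second Rrm2 probe set gave 1.57 against Pax5ko and 0.77 against EBFko, and a probe set described only as similar to Rrm2 gave 1.23 against Pax5ko and 0.86 against EBFko. That similar set was brighter than the set used, averaging 13.55 against 12.54. Of these sets, only the set used reached 2-fold against EBFko. Rrm1, the large subunit of the same enzyme, was called in no comparison, and its 2 bright probe sets disagreed in sign: they gave -0.20 and 0.52 for RAG2ko minus Pax5ko. Tk1, the thymidine salvage kinase of S phase, gave 11.42, 11.36 and 11.70 in RAG2ko, 11.10, 10.94 and 11.02 in Pax5ko, and 11.05, 11.13 and 11.04 in EBFko. Its RAG2ko arrays were the highest, array 3 above the rest. Tk1 rose by 0.47 ± 0.12 against Pax5ko (limma, adjusted p = 0.0384) and by 0.42 ± 0.12 against EBFko (limma, adjusted p = 0.0486), calls just under the threshold that were lost in 14 of 22 refits against Pax5ko and in 16 of 22 against EBFko. Tyms and Dut, enzymes of thymidylate synthesis and of dUTP removal, were called in none, and neither was Chaf1b, a subunit of chromatin assembly factor.

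**Figure D2:**
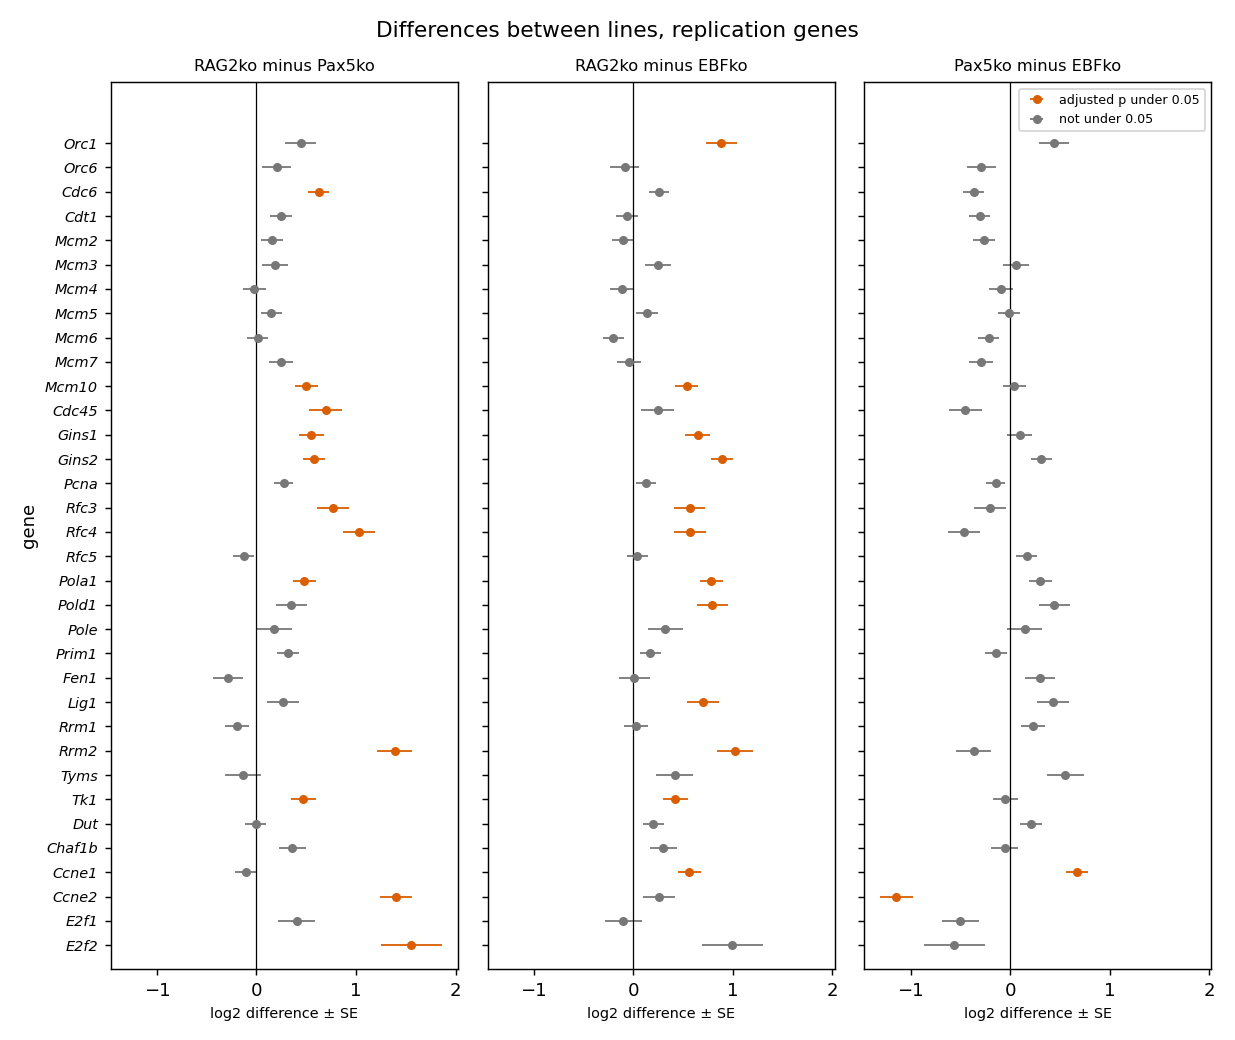
Log2 difference and its SE from the limma fit for the 34 replication genes, with RAG2ko minus Pax5ko at the left, RAG2ko minus EBFko in the middle and Pax5ko minus EBFko at the right. Orange points passed an adjusted p under 0.05. In both RAG2ko panels all 12 orange points lie to the right of 0, and in the Pax5ko minus EBFko panel only Ccne1 and Ccne2 are orange, on opposite sides of 0.

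Among the regulators, the 2 E cyclins were called in opposite directions between Pax5ko and EBFko. Ccne2, which encodes cyclin E2, gave 11.51, 11.35 and 11.24 in RAG2ko, 10.11, 9.76 and 10.05 in Pax5ko, and 11.19, 11.28 and 10.86 in EBFko. Its Pax5ko arrays were far below all others, while RAG2ko and EBFko overlapped. Ccne2 rose in RAG2ko against Pax5ko by 1.40 ± 0.16, or 2.64-fold (limma, adjusted p = 0.00138), and fell in Pax5ko against EBFko, by 1.14 ± 0.16, or 2.21-fold lower (limma, adjusted p = 0.00522). Ccne1, which encodes cyclin E1, gave 9.07, 9.01 and 9.03 in RAG2ko, 9.12, 9.27 and 9.04 in Pax5ko, and 8.55, 8.54 and 8.34 in EBFko. Here the EBFko arrays were the lowest and RAG2ko and Pax5ko overlapped. Ccne1 rose in RAG2ko against EBFko by 0.56 ± 0.11 (limma, adjusted p = 0.0115) and in Pax5ko against EBFko by 0.67 ± 0.11, or 1.59-fold (limma, adjusted p = 0.0103). By the probe sets used, Pax5ko was thus the line with the lowest cyclin E2 transcript and EBFko the line with the lowest cyclin E1 transcript. A second Ccne2 probe set was dim, averaging 5.54, and gave 0.13, 0.78 and 0.64 for RAG2ko minus Pax5ko, RAG2ko minus EBFko and Pax5ko minus EBFko, so the Ccne2 changes rest on its bright probe set. A probe set described as similar to cyclin E1 gave -0.40, 0.31 and 0.71 in the same comparisons. That set was brighter than the Ccne1 set used, averaging 10.035 against 8.89. With every probe set tested, it passed in none of them (limma, adjusted p = 0.215, 0.326 and 0.0754). The set used passed there for RAG2ko minus EBFko and Pax5ko minus EBFko (limma, adjusted p = 0.0403 and 0.0394).

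E2f2, an activating E2F factor, gave 9.12, 9.17 and 9.57 in RAG2ko, 7.40, 7.95 and 7.84 in Pax5ko, and 8.58, 8.66 and 7.64 in EBFko. The RAG2ko arrays were all above 9, and the Pax5ko arrays overlapped the EBFko arrays, of which array 3 was far below the other two. E2f2 rose against Pax5ko by 1.56 ± 0.31, or 2.94-fold (limma, adjusted p = 0.0132), the largest rise of any of the 34 genes in that comparison, and missed the threshold against EBFko (limma, adjusted p = 0.0568). E2f1, a related activator, gave 8.83, 9.26 and 9.43 in RAG2ko, 8.62, 8.96 and 8.74 in Pax5ko, and 9.12, 9.38 and 9.32 in EBFko. Its RAG2ko arrays overlapped those of both other lines, and no comparison was called (limma, adjusted p = 0.182 for RAG2ko against Pax5ko).

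**Figure D3:**
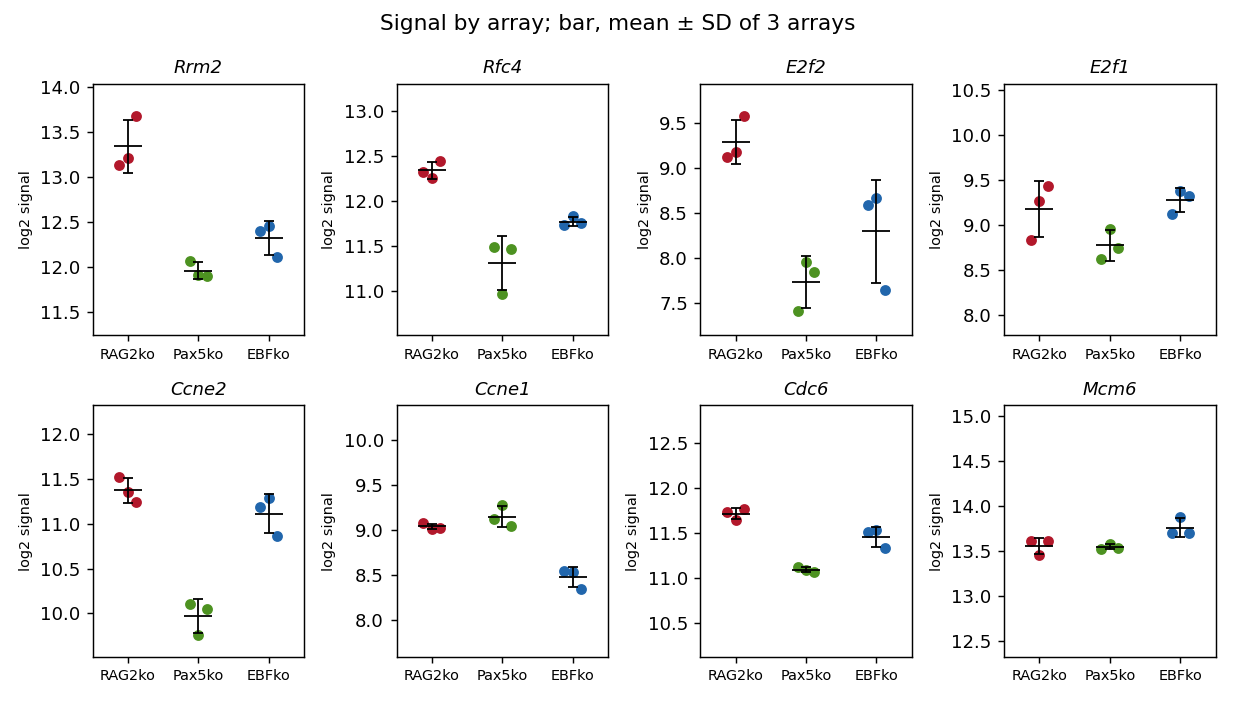
Log2 signal by array for Rrm2, Rfc4, E2f2, E2f1, Ccne2, Ccne1, Cdc6 and Mcm6, with a point per array and the mean and SD of the 3 arrays of a line. All panels span the same number of log2 units, but levels are not comparable between genes. Ccne2 is low in Pax5ko alone, Ccne1 is low in EBFko alone, and Mcm6 stays between 13.46 and 13.88.

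**Figure D4:**
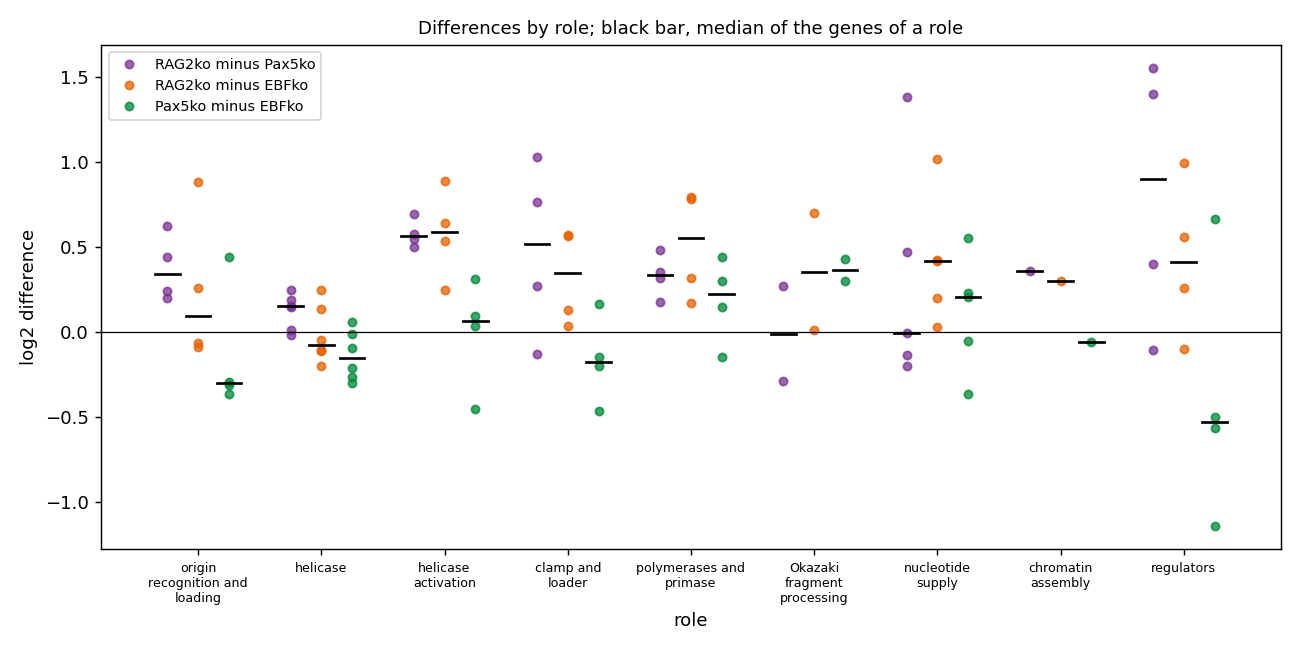
Log2 difference of each replication gene by role, with a point per gene, a colour per comparison and a black bar at the median of the role. The 4 genes of helicase activation lie between 0.50 and 0.70 for RAG2ko minus Pax5ko, while the 6 helicase subunits lie between -0.02 and 0.25.

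A wider list of 64 further genes of replication and its control, 61 of them tested, held both rises and falls. It mixes replication proteins with repressors such as E2f8 and the kinase inhibitor Cdkn1a, so its counts have no single direction of function. In RAG2ko minus Pax5ko, 16 of 61 rose and 3 fell, beside 9.88% and 8.09% of all genes, with a median of 0.20 against 0.07 over all genes. In RAG2ko minus EBFko, 10 rose and 2 fell, beside 11.4% and 10.6% of all genes, with a median of 0.18 against 0.06. In Pax5ko minus EBFko, 4 rose and 2 fell, beside 5.12% and 5.58% of all genes, with a median of -0.06 against -0.02. Dck, the deoxycytidine salvage kinase, gave 12.31, 12.24 and 13.05 in RAG2ko, 11.05, 10.57 and 11.09 in Pax5ko, and 10.80, 10.84 and 10.47 in EBFko. The RAG2ko arrays were above all others, array 3 highest. Dck rose by 1.63 ± 0.26 against Pax5ko (limma, adjusted p = 0.00551) and by 1.83 ± 0.26, or 3.56-fold, against EBFko (limma, adjusted p = 0.00268). E2f8, an E2F factor that represses its targets, averaged 10.86 ± 0.12 in RAG2ko, 9.35 ± 0.25 in Pax5ko and 9.71 ± 0.10 in EBFko (SD, n = 3 each). The RAG2ko arrays were again above all others. E2f8 rose by 1.51 ± 0.15 against Pax5ko (limma, adjusted p = 8.31e-04) and by 1.15 ± 0.15 against EBFko (limma, adjusted p = 0.00195). E2f7, its close relative, gave 10.08, 10.06 and 10.00 in RAG2ko, 9.04, 9.20 and 9.13 in Pax5ko, and 8.41, 8.68 and 8.07 in EBFko. Its lines formed 3 steps without overlap, RAG2ko highest and EBFko lowest. E2f7 rose by 1.66 ± 0.16, or 3.16-fold, in RAG2ko against EBFko (limma, adjusted p = 4.88e-04) and by 0.74 ± 0.16 in Pax5ko against EBFko (limma, adjusted p = 0.0297). Pold4, a small subunit of the lagging strand polymerase, rose against Pax5ko by 1.51 ± 0.28 (limma, adjusted p = 0.0102).

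Falls in this wider list were fewer. Dctd, a deaminase that feeds thymidylate synthesis, fell against Pax5ko by 1.19 ± 0.27 (limma, adjusted p = 0.0236). Topbp1, which acts in replication start and checkpoint signalling, fell in RAG2ko by 0.49 ± 0.12 against Pax5ko (limma, adjusted p = 0.0318) and by 0.47 ± 0.12 against EBFko (limma, adjusted p = 0.0314). Cdca7, a factor that works with the chromatin remodeller Hells, fell against Pax5ko by 0.48 ± 0.12 (limma, adjusted p = 0.035). Cdkn1a, the cyclin-dependent kinase inhibitor p21, gave 10.23, 10.10 and 10.38 in RAG2ko, 10.70, 10.57 and 10.95 in Pax5ko, and 11.23, 10.74 and 11.56 in EBFko. RAG2ko was the lowest line, although EBFko array 2 reached down among the Pax5ko arrays. Cdkn1a fell against EBFko by 0.94 ± 0.22 (limma, adjusted p = 0.0219). Between Pax5ko and EBFko, Dna2, a nuclease and helicase of fragment processing, rose by 0.88 ± 0.18 (limma, adjusted p = 0.0203), and Uhrf1, which couples replication to DNA methylation, rose by 0.88 ± 0.22 (limma, adjusted p = 0.0449). In the same comparison Dtymk, thymidylate kinase, fell by 0.68 ± 0.13 (limma, adjusted p = 0.0192), and Pole2, an accessory subunit of the leading strand polymerase, fell by 0.61 ± 0.14 (limma, adjusted p = 0.0357).

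Genes of mitosis, the phase after S and G2, were read beside the replication genes from a list of 34, of which 32 were tested. In RAG2ko minus Pax5ko, 9 of 32 rose and 0 fell, beside 9.88% and 8.09% of all genes, with a median of 0.33 against 0.07 over all genes. In RAG2ko minus EBFko, 6 rose and 1 fell, beside 11.4% and 10.6%, with a median of 0.11 against 0.06. In Pax5ko minus EBFko, 0 rose and 2 fell, beside 5.12% and 5.58%, with a median of -0.21 against -0.02. At an unadjusted p under 0.05 in limma, 16 were higher and 0 lower in RAG2ko than in Pax5ko, 8 higher and 3 lower in RAG2ko than in EBFko, and 0 higher and 8 lower in Pax5ko than in EBFko. The shares of all genes at that unadjusted threshold are not given here. Cdc25b, a phosphatase that activates the mitotic kinase, rose by 2.09 ± 0.24 against Pax5ko (limma, adjusted p = 0.00124) and by 2.19 ± 0.24 against EBFko (limma, adjusted p = 7.56e-04). Pttg1, the securin that inhibits separase, rose by 1.44 ± 0.18 against Pax5ko (limma, adjusted p = 0.00192) and by 1.69 ± 0.18 against EBFko (limma, adjusted p = 7.16e-04). Nuf2, a kinetochore protein, gave 11.58, 11.55 and 11.72 in RAG2ko, 10.09, 8.96 and 9.96 in Pax5ko, and 11.26, 11.21 and 11.19 in EBFko. Its Pax5ko arrays were well below all others. Nuf2 rose in RAG2ko against Pax5ko by 1.95 ± 0.28 (limma, adjusted p = 0.00372) and fell in Pax5ko against EBFko by 1.55 ± 0.28 (limma, adjusted p = 0.0136). The other fall in that comparison was Kif11, the kinesin that separates spindle poles, by 0.69 ± 0.13 (limma, adjusted p = 0.0148). Kif20a, a kinesin of cell division, fell in RAG2ko against EBFko by 0.66 ± 0.16 (limma, adjusted p = 0.0275).

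Leaving out RAG2ko array 3, on which the stromal signal was high, left 11 of 34 replication genes called higher against Pax5ko and 9 against EBFko. The other RAG2ko arrays were left out in the same way: without array 1, 6 were called against Pax5ko and 9 against EBFko, and without array 2, 7 were called in each comparison. The shares of all genes called in these refits are not given here, and the part of the stromal signal in the counts was not tested. The rises were modest in size, with 4 of the 12 against Pax5ko and 1 of the 12 against EBFko reaching 2-fold. Among all genes tested, 480 of the 924 rises against Pax5ko and 569 of the 1063 against EBFko did. Those are 5.13% and 6.08% of all genes tested, beside 4 and 1 of the 34 replication genes. The 1 against EBFko was Rrm2, which reached 2-fold by the probe set used but not by its other sets. Another probe set with a mean above 6 was available for 5 of the genes called against Pax5ko and for 6 of those called against EBFko, and all of these gave the same direction.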

How the data were processed

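RNA of 9 samples, 3 per line, was measured on arrays of 45101 probe sets. The deposited matrix holds 1 linear signal intensity per probe set and array. The submitters' processing notes name GCRMA, but on every array the mean without the top and bottom 2% of values was 500.003 or 500.004, so how they were made is not known. The authors' deposited tables of each line hold 1 ratio per probe set relative to an unstated reference and served only as an alternative.

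Intensities as deposited were log2 transformed and quantile normalized here. Of the probe sets, 13127 were named by RefSeq accession, 4965 by a shared description and 100 by 48 full names matched by hand, which gave 9935 genes. The filter asked for a log2 signal above 4 on at least 3 arrays, and the brightest represented its gene, leaving 9352. limma 3.58.1 (lmFit and eBayes, R 4.3.3) was fitted to all 9 arrays, with two-sided p-values adjusted by Benjamini-Hochberg over every gene tested and calls under 0.05. Errors are SE from that fit. The number of arrays limits the precision. The code was tested on simulated data.

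The members and lists were chosen with earlier results of these data known. Differences are given for genes that passed the test, with array values for these and for the regulators, Cdc6, Cdt1 and Pcna, and at most 3 rises and 3 falls of each further list in each comparison. Secondary probe sets and the promoters shown were chosen after their values were seen. Alternatives changed normalization, filter, probe set rule, variance model, arrays and call.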

Additional observations from a re-analysis of the deposited data

How the results depend on the processing

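In both comparisons with RAG2ko, 0 replication genes fell under every alternative run with limma, and none of the 26 called differences changed sign, in refits or in the ratio tables. Of these 26 calls, 9 were kept in every refit that could test the gene, where the threshold was the adjusted p alone. The number that rose against Pax5ko was 12 and became 5 with each array centred on its median, 4 with a call of at least 2-fold, and 7 with every probe set tested or with only the 6 arrays compared; leaving out 1 array gave 6 to 12. The number that rose against EBFko was 12, 1 with a call of at least 2-fold, and 7 to 11 without 1 array. Of these 12 calls, those of Rfc3, Rfc4 and Tk1 were lost with every probe set tested. With probe sets averaged, the calls of Orc1, Pola1, Rfc3, Rfc4 and Tk1 were lost. In Pax5ko minus EBFko, 1 rose and 1 fell. There 3 rose and 3 fell with array weights, 3 rose and 5 fell with trend and robust settings, 4 rose and 3 fell with a filter at 8, and 2 rose and 3 fell with signals below 64 raised to 64. Also, 2 fell with a filter at 6, 2 rose without probe sets that can match several transcripts, 0 rose with a call of at least 2-fold and 0 fell with probe sets averaged; leaving out 1 array gave 1 to 2 rises, with 2 without EBFko array 3. The median for RAG2ko minus Pax5ko was 0.35 with arrays centred, 0.37 as deposited and 0.42 from the ratio tables, and 0.27 to 0.36 without 1 array. For RAG2ko minus EBFko it was 0.50, 0.36 and 0.37 with these settings, and 0.37 with probe sets averaged. For Pax5ko minus EBFko it turned to 0.12 with arrays centred, a scaling that moved the median of all genes in that comparison by 0.12. With probe sets averaged, the Ccne2 differences were 0.77 for RAG2ko minus Pax5ko and -0.25 for Pax5ko minus EBFko, and neither was called. Replicate numbers were not used to pair the samples. Correlations between same-numbered arrays of different lines ran from -0.04 to 0.16, and those between differently numbered arrays from -0.195 to 0.122. These values do not settle whether a weak pairing by number exists. With the number as a block, 8 genes rose against Pax5ko and 9 against EBFko. The shares of all genes called under each setting are not given here, and the causes of these shifts were not tested.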
